A study of Danio rerio with 13 samples.

Results

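pax6a (ENSDARG00000103379) and pax6b (ENSDARG00000045936) are the zebrafish paralogs of Pax6, a transcription factor with a paired domain and a homeodomain. They were chosen as a gene pair and not by a rule on their values, though with earlier results of these data known. Their levels were taken from every deposited count table, as 2 of the 31901 gene IDs listed there. The study measured RNA in GFP+ cells of the Tg(pax6b:GFP)ulg515 reporter in the AB strain. Pancreatic endocrine cells (PECs) were sorted from the dorsal pancreatic bud at 27 hpf, with 3 samples of wild-type and 3 of pax6b-/- embryos. Enteroendocrine cells (EECs), the hormone-secreting cells of the gut epithelium, were sorted from dissected intestines at 4 dpf, with 4 wild-type and 3 pax6b-/- samples. The question was whether the loss of pax6b acts alike on endocrine cells of the pancreas and of the gut.

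All 13 samples carried the GFP transgene, and each was a separate preparation from a pool of about 200 animals, so an SD below is the spread between pools. The pax6b-/- animals (mutants hereafter) were homozygous for the null allele sa0086 and were picked from crosses of heterozygous carriers by a missing or smaller lens. Since the sort used regulatory sequence of pax6b itself, the level of pax6b in the sorted cells and the gate cannot be told apart. Tissue, age and the dissociation enzymes also go together and cannot be told apart.

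Pax6 is best known from the eye, where it is needed in lens, retina and cornea, and it also patterns the forebrain and the neural tube. In the mouse islet it is required for the expression of insulin, glucagon and somatostatin, and its loss is accompanied by more ghrelin cells. Teleost fish hold a pair of Pax6 genes that came from the duplication of the whole genome in their ancestor, and in zebrafish both are active in the eye and the brain while pax6b is the one known from the pancreas.

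Between 22423938 and 61895597 reads were counted on genes per sample, with a median of 33343637. Levels are given in CPM, a gene's part of the counts of its sample when these are scaled to a sum of 1e+06, and the smallest level taken as detected, 3 counts, was 0.0485 to 0.134 CPM. The libraries had no molecular identifiers, so intervals of single samples cover counting error only. The tissue labels could be checked against endocrine genes. Insulin (ins) and sst2, a somatostatin, were at 10721 ± 4505.5 and 19489 ± 5028 CPM in wild-type PECs (SD, n = 3) but at 0.810 ± 0.694 and 93.9 ± 51.7 CPM over the 4 EEC samples of wild type, and the gut peptide gene ccka was at 0.319 ± 0.553 and 5772 ± 1639 CPM in these groups. Summed over 11 genes, enterocyte markers were at 1730 to 2913 CPM in the EEC samples and 59.5 to 116 CPM in the PEC samples. Few genes carried this sum. In wild-type EECs vil1, anpepb and cdx1b were at 1145 ± 234, 682 ± 158 and 542 ± 168 CPM (SD, n = 4). The next, slc15a1b, was at 156 ± 15.7 CPM, and fabp2 at 78.0 ± 21.3 CPM. Whether these counts came from enterocytes or from EECs was not tested.

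pax6b was among the most counted genes of the PECs. Its level in wild-type PECs was 5086 CPM in replicate 1, 3660 CPM in replicate 2 and 2509 CPM in replicate 3, a mean of 3752 ± 1291 CPM (SD, n = 3). In mutant PECs it was 3761, 3199 and 7529.5 CPM, a mean of 4830.0 ± 2355 CPM (SD, n = 3). By its counts it ranked between 3 and 25 among all genes in these 6 samples, and the wild-type and mutant values overlapped, with the highest level in mutant replicate 3. In wild-type EECs pax6b was at 557, 735, 466 and 806.5 CPM, a mean of 641 ± 157 CPM (SD, n = 4). In mutant EECs it was at 1028, 1249 and 1473 CPM, a mean of 1250.0 ± 222 CPM (SD, n = 3). Every mutant EEC sample was above every wild-type one, and the lowest PEC sample was above the highest EEC sample. The ranks by counts were 152 to 314 in wild-type and 69 to 84 in mutant EECs. The transcript carrying the null allele was thus still counted in every mutant sample, and the counts of pax6b do not check the genotype labels. According to the study's protocol, that check came from the allele in the reads, which were not analysed here.

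pax6a was counted in all 13 samples but reached 1 CPM only in PECs. Wild-type PECs held 122, 68 and 116 counts, which are 3.18, 2.33 and 1.87 CPM, a mean of 2.46 ± 0.662 CPM (SD, n = 3). Mutant PECs held 890, 489 and 476 counts, which are 25.5, 20.1 and 17.2 CPM, a mean of 20.9 ± 4.20 CPM (SD, n = 3). The lowest mutant PEC sample was thus far above the highest wild-type one. Wild-type EECs held 17, 15, 3 and 1 counts, a mean of 0.215 ± 0.185 CPM (SD, n = 4). The single count of replicate 4 allows, by the exact Poisson interval at 95%, anything from 9.80e-04 to 0.216 CPM. Mutant EECs held 23, 7 and 11 counts, which are 0.443, 0.210 and 0.491 CPM, a mean of 0.381 ± 0.150 CPM (SD, n = 3). The EEC groups overlapped, and the single count lay under the smallest level taken as detected.

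**Figure D1:**
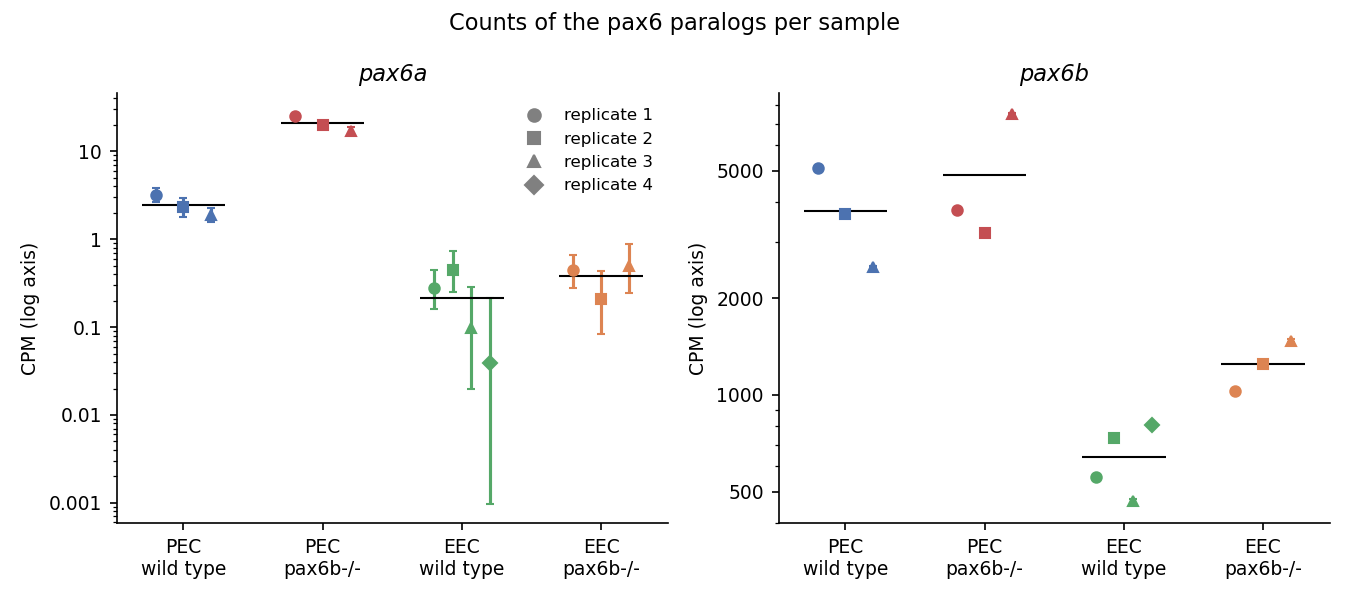
Levels of pax6a (left) and pax6b (right) in CPM on log axes, 1 point per sample with its 95% Poisson interval and a black line at the group mean. pax6a stands at 17.2 to 25.5 CPM in the 3 mutant PEC samples and at or below 3.18 CPM in the other 10, while pax6b separates the tissues and, among EECs, the genotypes.

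Loss of pax6b was accompanied by a higher level of pax6a in PECs, and no change of pax6b itself was detected there. By edgeR's quasi-likelihood test, the fitted rise of pax6a on the log2 scale was 2.83 (standard error (SE) 0.39, 95% interval 1.98 to 3.68, adjusted p = 6.54e-04), which is 7.10-fold with an interval of 3.93 to 12.8. At the threshold of 0.1 on the adjusted p, used throughout, 11.2% of the 18698 genes tested were called, 5.43% as higher and 5.74% as lower. The change of pax6a had the rank 204 from the highest among all genes tested, and 198 of the 1015 genes called higher rose at least as much. In 24.6% of the genes tested the wild-type and mutant samples did not overlap, as for pax6a. The log2 fold change of pax6b was 0.08 (SE 0.39, 95% interval -0.76 to 0.93, adjusted p = 0.934), and the interval leaves room for a fold between 0.591 and 1.90. Its sign turned to -0.38 when mutant replicate 3 was left out and to -0.21 when wild-type replicate 3 was left out. In these pools, more cells with the transcript and more transcript per cell cannot be told apart.

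Mutant replicate 2 of the PECs stood apart in keratin genes, which are among the markers of blood, muscle and skin. Its 11 blood, muscle and skin markers summed to 412 CPM against 18.3 to 41.8 CPM in the other 5 PEC samples, mostly through the keratin genes krt4, cyt1 and krt91. Without it the log2 fold change of pax6a in PECs was 2.87 (adjusted p = 0.00296 by edgeR), and over all replicates left out in turn it lay between 2.57 and 3.09.

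In EECs pax6b was called and pax6a was not, and whether this differed from PECs is the test of the interaction given after these comparisons. pax6b rose in mutant EECs by a log2 fold change of 1.03 (SE 0.22, 95% interval 0.55 to 1.51, adjusted p = 0.0278 by edgeR), which is 2.04-fold. This comparison used wild-type replicates 1 to 3, and 4.18% of the 18676 genes tested were called, 1.82% as higher and 2.36% as lower. The groups did not overlap for pax6b, as for 20.4% of the genes tested. The call is near its threshold. With wild-type replicate 4 added, the highest wild-type sample for pax6b, the log2 fold change was 0.85 and the adjusted p 0.102 by edgeR, and the adjusted p was 0.105 without wild-type replicate 1 and 0.124 in a fit that shared 1 estimate of the spread over 12 samples. For pax6a the log2 fold change was 0.41 (SE 0.95, 95% interval -1.66 to 2.47, adjusted p = 0.898 by edgeR). The group totals of pax6a were 35 counts in these 3 wild-type samples and 41 in the mutants, and the interval overlaps that of pax6a in PECs (1.98 to 3.68).

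Both paralogs were lower in EECs than in PECs, in wild type and in mutants. In wild type, pax6b fell by 2.71 on the log2 scale from PECs to EECs (SE 0.36, adjusted p = 1.48e-04 by edgeR), a 6.53-fold lower level. pax6a fell by 3.18 (SE 0.79, adjusted p = 0.00977), a 9.04-fold lower level. Among the 19302 genes tested 34.2% were called, 18.4% as higher and 15.8% as lower, so a call in this comparison is common. In mutants, pax6b fell by 1.78 (SE 0.31, adjusted p = 0.00101) and pax6a by 5.61 (SE 0.44, adjusted p = 4.07e-06), the latter a 49.0-fold lower level, where 40.3% of 18853 genes were called, 21.0% as higher and 19.3% as lower. None of these PEC and EEC groups overlapped for either paralog, as for 42.6% of genes in wild type and 48.3% in mutants.

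Whether the mutant effect differed between the tissues was tested as an interaction in 12 samples. The effect on pax6a was 2.41 lower in EECs than in PECs on the log2 scale (-2.41, SE 0.73, 95% interval -3.95 to -0.87), with an unadjusted p of 0.00418 and an adjusted p of 0.110 by edgeR, just outside the threshold that 3.58% of 21067 genes passed, 1.71% with a higher and 1.87% with a lower effect in EECs. DESeq2 gave an adjusted p of 0.0116 for it, and without wild-type EEC replicate 3, which holds 3 counts of pax6a, edgeR gave 0.0443. Under all other alternatives run the difference was not called, with adjusted p from 0.102 to 0.295, the latter without mutant PEC replicate 1. The effect on pax6b was 0.95 higher in EECs (SE 0.47, 95% interval -0.05 to 1.95, adjusted p = 0.424), so a difference of the pax6b response between the tissues was not shown.

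**Figure D2:**
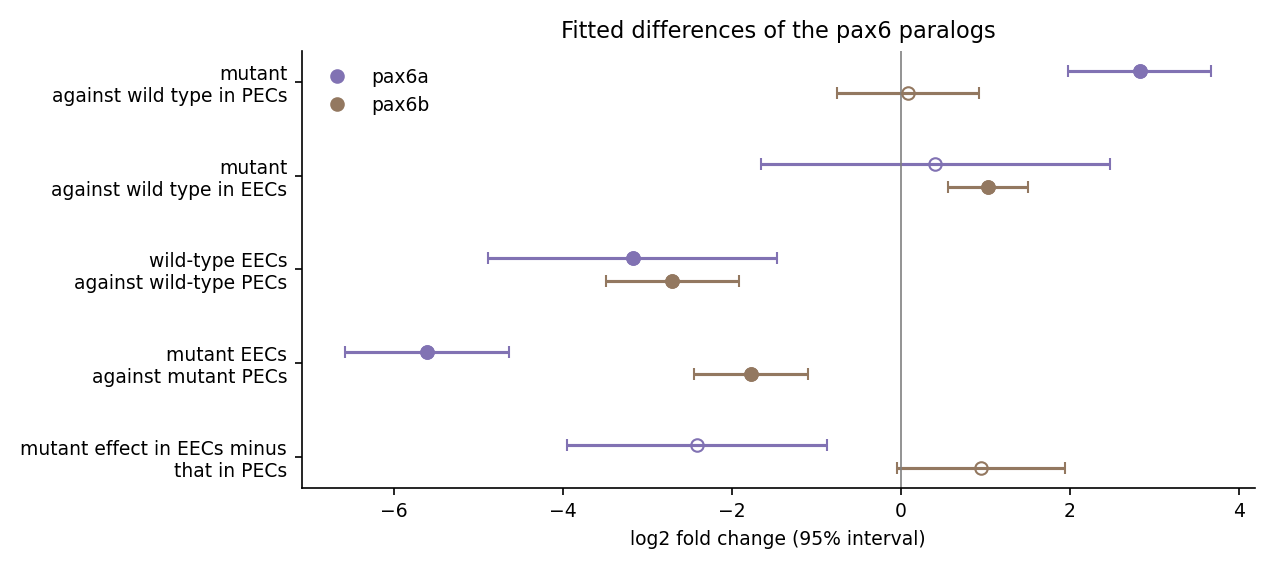
Log2 fold changes of pax6a and pax6b in the 5 fitted comparisons, with 95% intervals, filled where the adjusted p was under 0.1. pax6a rose by 2.83 in mutant PECs and pax6b by 1.03 in mutant EECs, and both were lower in EECs than in PECs in both genotypes.

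The counts of the paralogs can be set against each other within a sample, which removes the total from the scale. This is a ratio of counts and not of levels per length, since the lengths of the transcripts were not used here. In wild-type PECs there were 0.625, 0.635 and 0.747 counts of pax6a per 1000 counts of pax6b, a narrow range although pax6b itself varied from 2509 to 5086 CPM. In mutant PECs the ratio was 6.78, 6.28 and 2.29, lowest in replicate 3, which had the highest pax6b and the lowest pax6a of the mutant PECs. Wild-type EECs had 0.496, 0.607, 0.208 and 0.0480, and mutant EECs 0.431, 0.168 and 0.333. Every mutant PEC sample was above the other 10 samples, yet even there pax6a made up at most 0.673% of the counts of the pair. On the log2 scale the mean ratio was 2.79 higher in mutant than in wild-type PECs, with p = 0.1 by a two-sided exact permutation test, the smallest p that 3 against 3 samples allow. It was 0.30 higher in mutant than in wild-type EECs (exact permutation p = 0.914, n = 3 and 4). The plain mean ratio was 0.340 in wild-type and 0.311 in mutant EECs, so no direction is shown. Wild-type replicate 4, the lowest, rests on 1 count of pax6a. The mean log2 ratio fell by 1.51 from wild-type PECs to wild-type EECs (exact permutation p = 0.0571, also the smallest possible). From mutant PECs to mutant EECs it fell by 3.99 (exact permutation p = 0.1). The size of the wild-type fall leans on EEC replicates 3 and 4, with 3 and 1 counts of pax6a. The exact 95% intervals of EEC replicates 1 and 2 reached 0.795 and 1.00, above all wild-type PEC ratios. Over these 4 comparisons the adjusted p-values were 0.133, 0.914, 0.133 and 0.133. The counts came from STAR's built-in gene counting, and how it handled reads that fit both paralogs was not examined here. Whether some of the few pax6a counts outside mutant PECs were reads of pax6b was not tested.

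**Figure D3:**
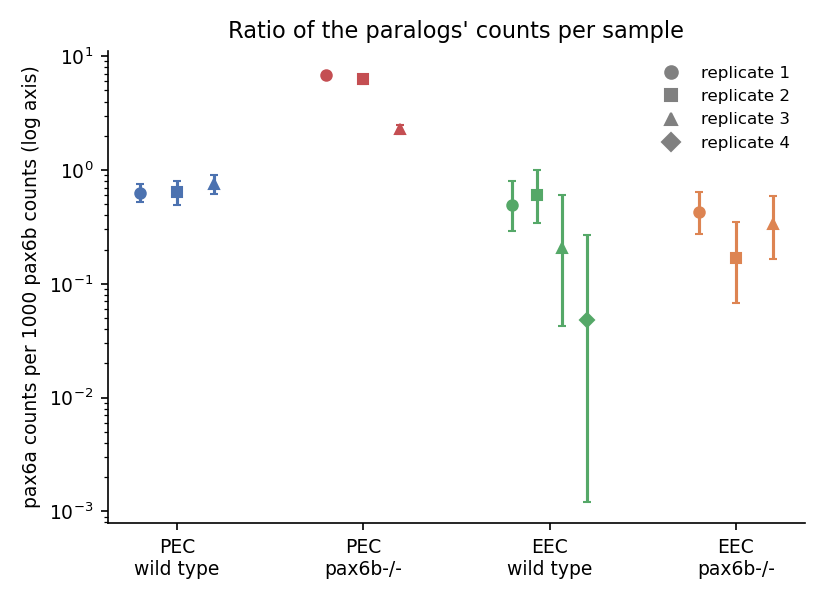
Counts of pax6a per 1000 counts of pax6b on a log axis, 1 point per sample with its exact 95% interval. The 3 mutant PEC samples lie at 2.29 to 6.78 and the other 10 samples at 0.0480 to 0.747.

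Of the 13 other pax genes in the files, 3 reached 1 CPM in any sample, and only pax4 was well above that level. The pax genes tested in PECs were pax4, pax2a and pax5, and none was called, where 11.2% of all genes were. pax4, the nearest relative of Pax6 in the islet and in the mouse a factor of beta and delta cells, was at 241, 162 and 86.6 CPM in wild-type PECs and 309, 202 and 486 CPM in mutant PECs. These groups overlapped (log2 fold change 0.73, SE 0.42, adjusted p = 0.358). In EECs pax4 was at 139 to 227 CPM in wild type and at 410, 665 and 746 CPM in mutants, a rise of 1.70 (SE 0.26, adjusted p = 0.00431 by edgeR). pax4 thus rose beside pax6b in mutant EECs. Its effect in EECs minus that in PECs was 0.97 (SE 0.54, adjusted p = 0.494 by edgeR), so a difference between the tissues was not shown. pax2a, a factor of the kidney, the optic stalk and the midbrain-hindbrain boundary, was at 3.25 ± 1.64 CPM in wild-type and 1.90 ± 1.50 CPM in mutant PECs (SD, n = 3, log2 fold change -0.95, adjusted p = 0.427). pax10, a fish relative of pax6 without a paired domain, had 0.532 ± 0.334 CPM in the EECs of wild type (SD, n = 4) and 0.739 ± 0.440 CPM in those of mutants (SD, n = 3, log2 fold change 0.60, adjusted p = 0.853).

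pax6a is a gene of eye and neural tube, so the markers of these tissues were read beside its rise in mutant PECs. The 20 eye and lens markers summed to 54.6 to 139 CPM in wild-type and 92.7 to 130 CPM in mutant PECs, and of 8 tested none was called higher and 1, a paralog of SIX3 (ENSDARG00000058008), was called lower, where 11.2% of all genes were called. That gene had 98 counts over the wild-type PECs and none over the mutants, at least 21.9-fold lower against a floor of 3 counts over the group. The 16 neural tube markers summed to 293 to 537 CPM in wild-type and 356 to 480 CPM in mutant PECs. The sums overlapped between the genotypes, but few genes carried them. A pair of CRYBA2 paralogs, at 80.1 ± 35.5 and 26.1 ± 11.6 CPM in wild-type PECs (SD, n = 3), made up most of the eye and lens sum, and only 4 of its 20 genes reached 1 CPM in any wild-type and 5 in any mutant PEC sample. In wild-type EECs this pair was at 3.05 ± 1.68 and 34.65 ± 7.88 CPM (SD, n = 4). The lens genes cryaa, cryba1b and crygmx reached at most 0.103, 0.130 and 0.0261 CPM in wild-type PECs. In mutant PECs the maxima of cryaa and cryba1b were lower, at 0.0822 and 0.0362 CPM, and that of crygmx was higher. On the same list, bfsp2 and foxe3 reached at most 0.0342 and 0.103 CPM in wild-type but 0.542 and 1.23 CPM in mutant PECs. The genotypes overlapped for both. lim2.1 reached at most 0.156 CPM in wild-type PECs and had no count in mutant PECs. None of these genes was tested in PECs. Whether the CRYBA2 counts came from eye or endocrine cells was not tested. The neural sum was mostly fabp7a at 259 ± 98.5 CPM and elavl3 at 113 ± 25.7 CPM (SD, n = 3). Of 14 neural tube markers tested, 2 were called higher and 1 lower in mutant PECs. The genes called higher were a paralog of SOX1 (ENSDARG00000069866), a factor of neural progenitors and lens, and a paralog of EGR2 (ENSDARG00000042826), a hindbrain factor. The SOX1 paralog had 1.09, 0.616 and 1.26 CPM in wild-type and 9.28, 11.1 and 5.68 CPM in mutant PECs, and its log2 fold change was 2.92 (SE 0.46, adjusted p = 0.00158), close in size to that of pax6a. The EGR2 paralog had 6.11 ± 1.03 CPM in wild-type and 16.7 ± 4.20 CPM in mutant PECs (SD, n = 3, adjusted p = 0.0590). The gene called lower was her4.1, a Notch target of neural progenitors, which fell by 1.76 (SE 0.51, adjusted p = 0.0565). The last 2 calls were lost when single samples were left out, mutant replicate 1 among them, with adjusted p up to 0.254 for the EGR2 paralog and 0.427 for her4.1. Without wild-type replicate 1 the log2 fold change of her4.1 was -0.89. In EECs none of the 6 eye and 8 neural markers tested was called, where 4.18% of all genes were. The part of such cells in the level of pax6a was not tested.

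Among genes that act with Pax6 or beside it in the eye field, 3 of 19 tested were higher and 4 lower in mutant PECs, with a median log2 fold change of -0.05 beside 0.02 over all genes, of which 11.2% were called. eya1, a coactivator of homeodomain proteins in the eye field, rose by 1.04 (adjusted p = 0.0282) in PECs and fell by 1.23 (adjusted p = 0.0376) in EECs. meis1a, of the TALE homeodomain family whose members bind DNA beside Pax6, fell by 2.27 (adjusted p = 0.00267) in PECs, while its family member pbx1a rose by 1.01 (adjusted p = 0.0195). The MEIS1 paralog ENSDARG00000012078 rose by 1.19 (adjusted p = 0.0520) in PECs and fell by 1.59 (adjusted p = 0.0915) in EECs, meis2a fell by 1.09 and 1.54 (adjusted p = 0.0744 and 0.0521), and eya2 fell by 1.69 in PECs (adjusted p = 0.0692). The SIX3 paralog was the remaining gene lower in PECs. In EECs 0 of 15 were higher and 3 lower, where 4.18% of all genes were called. Without wild-type replicate 3 the log2 fold change of meis1a in PECs was -1.67. The call of eya2 in PECs was lost whichever sample was left out, with adjusted p from 0.105 to 0.175 by edgeR. Apart from those of meis1a and the SIX3 paralog in PECs, each call of this list was lost without at least 1 sample, with adjusted p up to 0.307 in PECs (meis2a without mutant replicate 1) and up to 0.294 in EECs (the MEIS1 paralog without wild-type replicate 3, at a log2 fold change of -0.92).

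Genes known from the mouse to depend on Pax6 in the islet were read beside the paralogs. Of 24 tested, 4 were higher, 10 lower and 10 not called in mutant PECs, where 5.43% of all genes were higher and 5.74% lower, and the median log2 fold change was -0.41. In mutant EECs 4 were higher, 3 lower and 17 not called, beside 1.82% and 2.36% of all genes, with a median of 0.32. The median over all genes was 0.02 in both comparisons. The largest falls in PECs were those of the hormone genes gcgb (-8.68), ins (-7.09), sst1.1 (-4.36) and sst1.2 (-3.15) and of the beta cell factors pdx1 (-5.44) and nkx6.2 (-5.25), all with adjusted p at or below 3.24e-04. The 4 higher genes were arxa, an alpha cell factor, at 1.91, ghrl, the ghrelin gene, at 1.41, nkx2.2a at 0.97 and neurod1 at 0.77, of which the last 3 were named after their values were seen. The calls of these 3 were lost without mutant replicate 1 among others, with adjusted p up to 0.265 for ghrl, 0.168 for nkx2.2a and 0.361 for neurod1, and that of sst1.1 in the fit over 12 samples (adjusted p = 0.116). Without wild-type replicate 3 the log2 fold change of sst1.1 was -3.55. In EECs the log2 fold changes were -6.30 for gcgb, -3.45 for pdx1 and -1.59 for the prohormone convertase gene pcsk2, and 2.11 for ghrl, 1.87 for sst2, 1.11 for nkx2.2a and 0.76 for neurod1. The call of pcsk2 was lost with wild-type EEC replicate 4 (adjusted p = 0.575), and those of sst2, nkx2.2a and neurod1 without mutant EEC replicate 2 among others, with adjusted p up to 0.145, 0.119 and 0.254. Without wild-type EEC replicate 3 the log2 fold change of sst2 was 2.58. Unlike gcgb, the other glucagon gene, gcga, was called in neither tissue. It was at 1504 ± 998 CPM in wild-type and 3131 ± 361 CPM in mutant PECs (SD, n = 3, log2 fold change 0.91, adjusted p = 0.131). In EECs it was at 1871 ± 568.5 CPM in wild type (SD, n = 4) and 1303 ± 377.5 CPM in mutants (SD, n = 3). Its log2 fold change there was -0.53 (adjusted p = 0.460 by edgeR).

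Of the transcription factors of endocrine differentiation, 8 of 18 tested were higher and 5 lower in mutant PECs, beside 5.43% and 5.74% of all genes, and the median log2 fold change was 0.87 beside 0.02 over all genes. Beside arxa, the genes that rose with pax6a included insm1b (1.89, adjusted p = 0.00353), ascl1a (1.84, adjusted p = 0.0179) and sox4b (1.36, adjusted p = 0.0186). Beside pdx1 and nkx6.2, those that fell were fev, foxo1a and mnx1, named after their values were seen. The calls of these 3 were lost without mutant replicate 1 among others, with adjusted p up to 0.266 (mnx1), and that of sox4b without mutant replicate 2 (adjusted p = 0.104). In mutant EECs 7 of 19 were higher and 1, pdx1, was lower, beside 1.82% and 2.36% of all genes, with a median of 0.61 beside 0.02. neurog3, in the mouse an endocrine progenitor factor, rose from 6.73 ± 2.89 CPM (SD, n = 4) to 75.7 ± 18.2 CPM (SD, n = 3). That rise is 3.29 on the log2 scale (adjusted p = 4.81e-04 by edgeR), where pax6b rose by 1.03. rfx6 rose by 1.59 (adjusted p = 0.0399), insm1a by 1.19 (adjusted p = 0.0120) and sox4b by 1.17 (adjusted p = 0.0939), and the calls of rfx6 and sox4b were lost without mutant replicate 1 among others, with adjusted p up to 0.184 and 0.229.

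The 5 protein-coding neighbours on each side of each paralog were taken from the gene order of the GRCz12tu assembly, in which pax6a lies on chromosome 25 and pax6b on chromosome 7. Next to pax6a lie dnajc24 on 1 side and wt1a, the kidney and gonad factor, on the other, and next to pax6b lie rcn1 and elp4, a subunit of the Elongator complex whose introns hold Pax6 enhancers in mouse and human. Of the 10 neighbours of pax6a, 8 were tested in PECs and none was called at the background of 11.2%, with log2 fold changes from -0.95 to 0.51. In EECs, where 4.18% of all genes were called, 1 of 6 was called, kiaa1549la. It was at 0.975, 1.64, 1.39 and 0.232 CPM in wild type and 6.09, 6.48 and 10.1 CPM in mutants. Its log2 fold change there was 2.43 (SE 0.48, adjusted p = 0.0193 by edgeR). In PECs its log2 fold change was 0.51 (adjusted p = 0.278).

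Of the 10 neighbours of pax6b, 6 were matched to the files and all 6 were tested. In PECs, where 11.2% of all genes were called, 1 of the 6 was called, elp4 (ENSDARG00000008852), a gene next to pax6b. It had 7.48, 7.08 and 25.8 CPM in wild-type and 60.8, 38.0 and 56.7 CPM in mutant PECs. The groups did not overlap, and the log2 fold change was 1.81 (SE 0.40, adjusted p = 0.0143 by edgeR). It was 2.47 without wild-type replicate 3, the highest wild-type sample, and stayed called with each sample left out. In EECs, where 4.18% of all genes were called, none of the 6 was. There elp4 had 5.85 to 9.998 CPM in wild type and 14.7, 13.7 and 19.9 CPM in mutants. These groups did not overlap either, as for 20.4% of the genes tested in EECs. The log2 fold change of elp4 there was 0.88 (SE 0.33, adjusted p = 0.221 by edgeR). Its effect in EECs minus that in PECs was -0.90 (SE 0.54, adjusted p = 0.537 by edgeR), so a difference between the tissues was not shown. The strand setting of the counting is not given in the sources used here, so reads of pax6b and of a neighbour on the other strand may not be told apart.

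**Figure D4:**
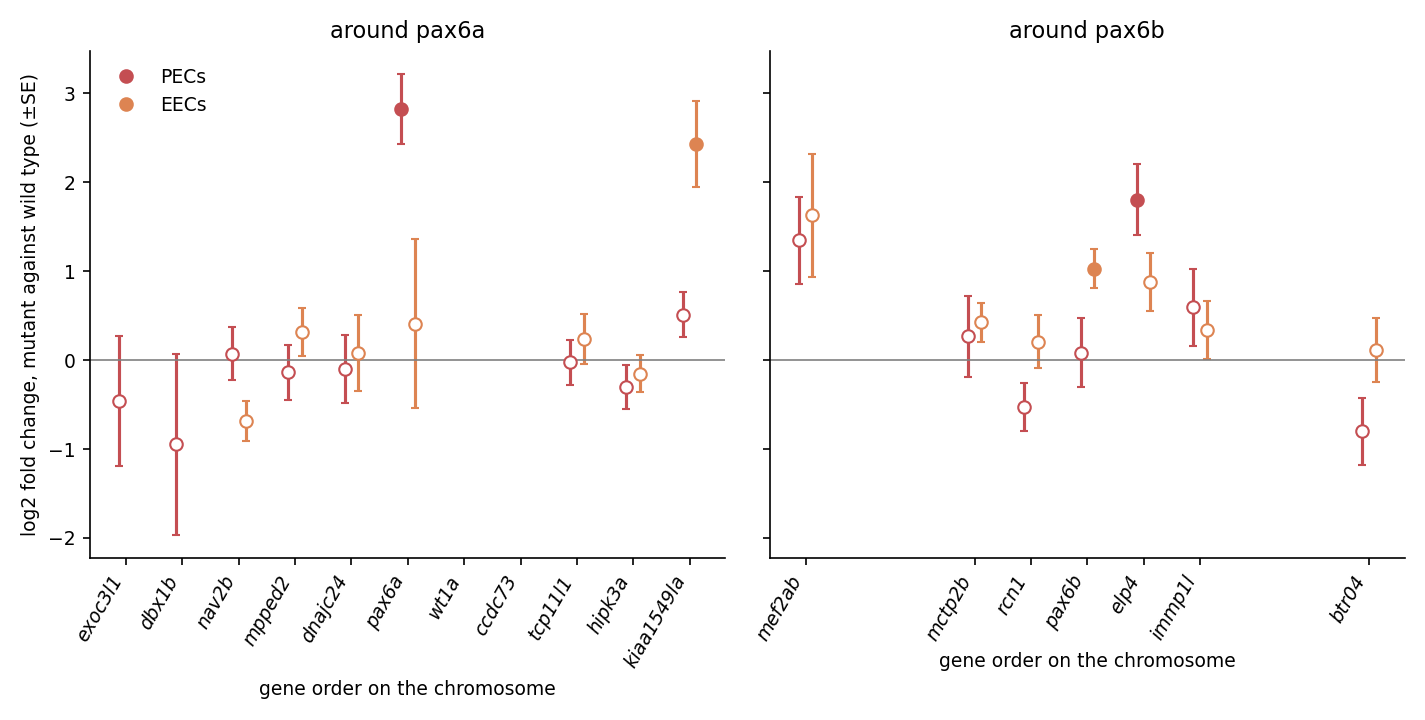
Log2 fold change (mutant against wild type, ±SE) of pax6a, pax6b and their neighbours in the order of the genes, in PECs (red) and EECs (orange), filled where the adjusted p was under 0.1. In PECs pax6a stands at 2.83 among neighbours of which none was called, and elp4 at 1.81 stands beside pax6b at 0.08.

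The genes whose profile over 12 samples was most like that of each paralog were found by the root mean square difference of centred log2(CPM + 0.5) values, among 21067 genes. For pax6a, whose own values spread by 1.94 on this scale, they were si:ch211-119o8.4 (0.353), the homeobox gene irx3b (0.387), chrna1 (0.391), which encodes a subunit of the muscle acetylcholine receptor, rtn4r (0.393), a receptor for myelin inhibitors in mammals, and umps (0.413), an enzyme of pyrimidine synthesis. irx3b was at 2.55 ± 0.389 CPM in wild-type and 15.7 ± 2.05 CPM in mutant PECs (SD, n = 3) and at 0.0744 and 0.159 CPM in the EEC groups. umps had the same shape at a higher level, with 34.3 ± 7.50 CPM in wild-type and 248 ± 45.7 CPM in mutant PECs (SD, n = 3). For pax6b, whose values spread by 1.26, they were zgc:92818 (0.276), si:ch211-133n4.4 (0.319), zgc:172182 (0.341), dre-mir-375-1 (0.354), the gene of a precursor of the islet microRNA miR-375, and si:ch211-106h4.5 (0.361). zgc:92818 was at 654 ± 88.1 and 844 ± 177 CPM in wild-type and mutant PECs (SD, n = 3) and at 91.3 ± 9.63 CPM (SD, n = 4) and 195 ± 17.9 CPM (SD, n = 3) in wild-type and mutant EECs. These genes were picked for their likeness, so their differences between the groups carry no test here.

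**Figure D5:**
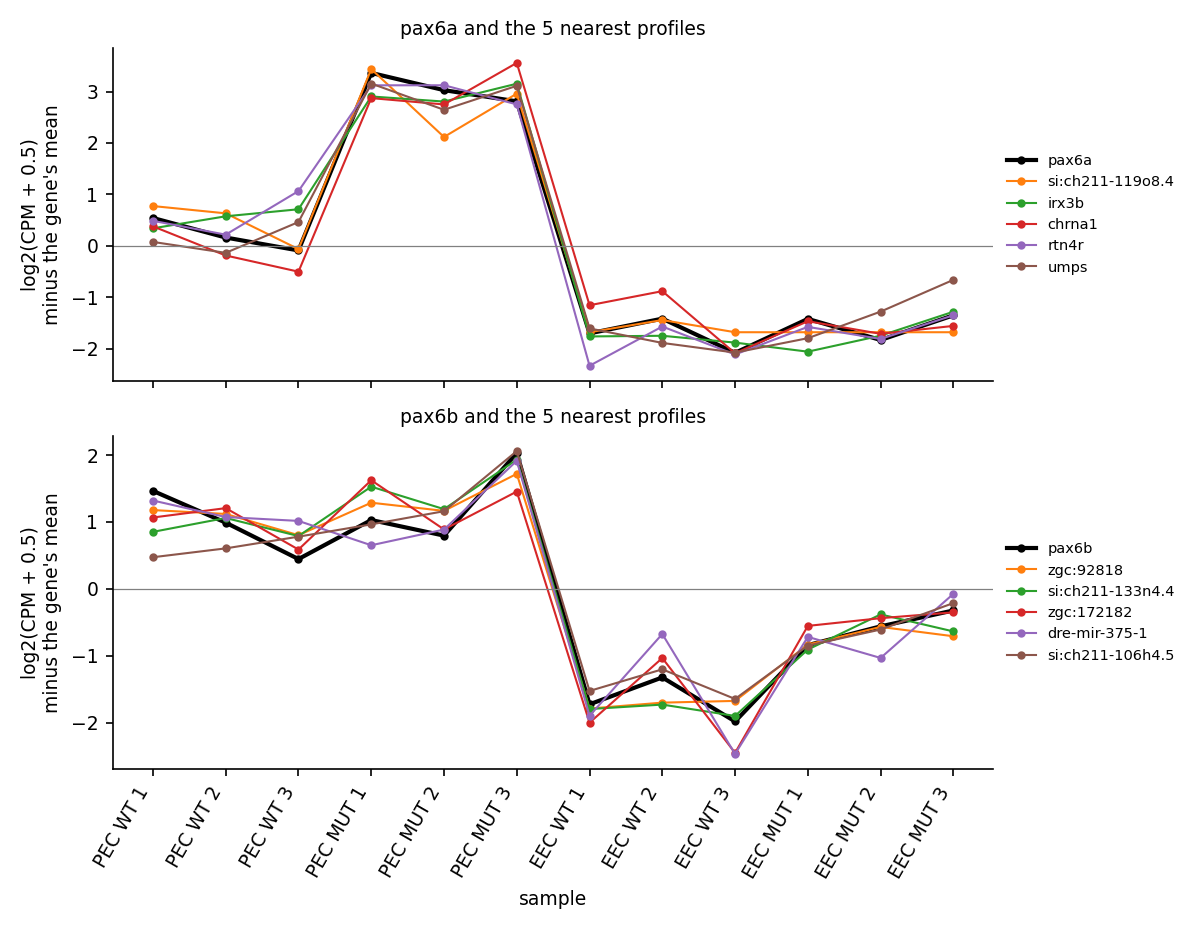
Centred log2(CPM + 0.5) of pax6a (top, black) and pax6b (bottom, black) in 12 samples, with the 5 nearest genes of each in colour. The pax6a set peaks in the 3 mutant PEC samples and the pax6b set lies higher in all 6 PEC samples than in the EEC samples.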

How the data were processed

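RNA of GFP+ cells was measured in 13 samples. The counts are whole reads per gene, as deposited by the authors. Cells went through 2 rounds of FACS, with about 3000 cells per EEC sample, and Smart-seq2 cDNA from 13 cycles of PCR was made into Nextera-XT libraries and sequenced. The authors trimmed the reads, mapped them with STAR 2.5.4b to GRCz11 and took its gene counts over Ensembl release 92, not normalized. Whether the counting used strand is not given in the sources used here.

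Symbols came from the study's tables (5831 IDs) or a reference list (23437 IDs), and 2633 IDs had none. Where the list gave a symbol to several paralogs, the gene is called a paralog of it. Neighbours came from the gene order of GRCz12tu, a build other than GRCz11.

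Groups were compared with edgeR 4.0.16 (R 4.3.3; it loads limma 3.58.1), using TMM, filterByExpr, a robust quasi-likelihood fit, its F test, and Benjamini-Hochberg adjustment over all tested genes with a threshold of 0.1. These fits did not use wild-type EEC replicate 4, since the study compared triplicates, but levels and ratios did. Every adjusted p of a single gene is from edgeR unless another tool is named. The ratio was compared by exact permutation tests. The fits were tested on simulated data. DESeq2 1.42.0, RLE factors, other filters, a replicate block, 1 fit over 12 samples, the sample left out and leave-one-out fits were the alternatives. Tables came from pandas 2.3.3 with numpy 2.4.6, permutation tests from scipy 1.17.1, and figures from matplotlib 3.10.9, in Python 3.11.15.

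The members and gene lists were chosen with earlier results of these data known. The rule named both paralogs, pax genes that reached 1 CPM in any sample, of other lists up to 6 called genes with the largest changes, called neighbours among 5 on each side, and the 5 genes nearest in profile.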

Additional observations from a re-analysis of the deposited data

Results flagged for a closer look

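In 3 cases 1 of the 4 wild-type EEC samples lay far from the others, among 39 gene values checked in this way, of which chance would mark about 1 in 20. These were pax10 at 0.0323 CPM in replicate 3, sox4b at 50.6 CPM in replicate 1 and sst1.1 at 65.8 CPM in replicate 3. The levels of pax6a and pax6b and their ratio held no such sample.

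The mutant effect differed between EECs and PECs by edgeR's interaction test for 15 of the named genes, at an adjusted p under 0.1, though for neither pax6a nor pax6b. Of all 21067 genes tested, 3.58% passed this threshold. Many of the named genes were picked as called genes with large changes in these same data. The count of 15 is therefore no measure of how often the effect differs. On the log2 scale and as the effect in EECs minus that in PECs, the difference was 8.29 for ins, 5.60 for nkx6.2, 4.89 for neurog3, 4.04 for sst2, 2.94 for meis1a, 2.40 for gcgb, 1.99 for pdx1 and 1.93 for kiaa1549la. It was -6.58 for the SOX1 paralog, which held 1 count in all mutant EECs, -2.77 for the MEIS1 paralog, -2.38 for the EGR2 paralog, -2.26 for eya1, -1.98 for insm1b and -1.58 for arxa. For the SIX3 paralog, with no count in mutant PECs, it was 8.54, a fitted value that depends on the prior count and is no bound. The sizes for neurog3 and ins also rest on low levels in 1 tissue. neurog3 held 11, 10 and 13 counts in wild-type and 2, 0 and 7 in mutant PECs, and was not tested there alone. ins was at 0.810 ± 0.694 CPM (SD, n = 4) in wild-type and 2.375 ± 2.958 CPM (SD, n = 3) in mutant EECs.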

How the results depend on the processing

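The rise of pax6a in mutant PECs and the lower levels of both paralogs in EECs kept their direction and their call under every alternative run. The sign of pax6b in PECs turned in the fits named in the report, and with single samples left out it ran from -0.38 to 0.39. pax6b in mutant EECs was not called by edgeR in 1 fit over 12 samples (1.04, adjusted p = 0.124) or with wild-type replicate 4 added (0.85, adjusted p = 0.102). Its call was also lost without wild-type replicate 1 (0.98, adjusted p = 0.1055), and it ran from 0.92 to 1.19 with samples left out. The interaction of pax6a was called by DESeq2 (-2.45, adjusted p = 0.0116) and by edgeR without wild-type EEC replicate 3 (adjusted p = 0.0443). It ran from -2.72 to -1.97 with samples left out, while that of pax6b was called under none of 19 alternatives. With samples left out, the number of genes called in PECs, 2089, ran from 1148 (mutant replicate 1) to 3873 (wild-type replicate 3) and was also over 1.5 times lower without mutant replicate 2 (1361) or wild-type replicates 1 (1252) and 2 (1270). That in EECs, 780, ran from 391 (mutant replicate 2) to 678 and was 448 without mutant replicate 1. That for the interaction, 755, ran from 503 (mutant PEC replicate 1) to 1017 and passed 1.5 times only there. DESeq2 called 1705 genes in EECs and 1379 for the interaction. At a threshold of 0.05, edgeR's main fits called 477 genes in EECs and 480 for the interaction. With CPM over totals without the 10 genes with the most counts, the mean of pax6a was 3.28 in wild-type and 26.1 in mutant PECs and that of pax6b 1514 in mutant EECs. Of the other named genes, 118 of 613 alternatives lost a call and none turned a direction.

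Equal replicate numbers are no stated pairing, and the deviations of equally numbered samples correlated between -0.16 and 0.31. With a replicate block, pax6a in PECs stayed called (2.87, adjusted p = 0.00485) and pax6b in EECs too (1.04, adjusted p = 0.0703), with 1199 genes called in PECs and 435 for the interaction. In EECs pax6a was too low for the filter of 1 CPM in 3 samples, so that fit gave no value. In EECs pax6a rests on 1 to 23 counts per sample, and the parts of counting error and of the spread between samples in its wide interval were not separated.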
